A study of Mus musculus with 14 samples.

Results

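The amino acid transporters of the solute carrier (SLC) families Slc1, Slc3, Slc6, Slc7, Slc36, Slc38 and Slc43 were followed in primary mouse erythroid progenitors that had, or had not, been challenged with erythropoietin (EPO). Members were all probe sets that name a single gene of these families in the platform annotation. They comprised 125 probe sets for 63 genes, among 45037 probe sets tested, of which 34945 name 1 gene (18193 genes). The choice used gene symbols alone and no measured value. Of the 63 genes, 3 (Slc36a1os, Slc6a19os and Slc7a6os, 4 probe sets) are transcripts of the opposite strand and encode no carrier, which leaves 121 probe sets for 60 carrier genes. Not every carrier moves amino acids. The Slc6 family also holds carriers of neurotransmitters, taurine and creatine, and Slc43a3 carries purine bases.

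Cells came from bone marrow of wild-type C57Bl/6 female mice aged 8 to 12 weeks, grown in SP34ex medium. Stage E2 cells (day 3.5, Kit+ cells depleted, CD71+ cells selected) are the later stage, and stage E1 cells (day 3, Kit+ CD71+) are CFUe-like progenitors. All cells, EPO-challenged or not, were first held for 5.5 h without haematopoietic cytokines. The challenge that followed lasted 90 min, at an EPO dose of 4 U/mL or of 0 U/mL. The arrays comprised 3 EPO-challenged and 3 unchallenged samples of stage E2, and 4 EPO-challenged and 4 unchallenged samples of stage E1, 14 in all, titled as biological replicates. Cells were thus compared after cytokine withdrawal in every group. How many mice went into a sample is not given in the sources used here.

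Amino acid carriers import the building blocks of protein and the glycine from which haem is made, and developing erythroblasts synthesise both haem and globin in bulk. Members of the Slc7 family such as Slc7a5 and Slc7a11 reach the cell surface as partners of the heavy chain Slc3a2, whereas Slc7a1 works alone. A cell short of amino acids translates the transcription factor ATF4, which raises transcription of several carriers. At the lysosome, Slc38a9 senses arginine and passes that signal to the kinase complex mTORC1. The EPO receptor acts through JAK2 and the transcription factor STAT5.

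Each value is a log2 GC-RMA value from which 1 constant per probe set has been subtracted, so values of different probe sets cannot be ranked, and only differences between arrays are read here. A difference was taken as passed at a Benjamini-Hochberg adjusted p under 0.05 over all 45037 probe sets (limma, two-sided moderated test). Of the 125 members, 63 (50.4%) barely varied, with an SD under 0.1 over the 14 arrays, against 45.5% of all probe sets. For 26 carrier genes this held for every probe set, among them the GABA carriers Slc6a11 and Slc6a12 and the glutamate carriers Slc1a2, Slc1a6 and Slc1a7. No statement on absence can be drawn from that. Replicate spread was smaller in stage E2, with a median SD of 0.0343 (EPO) and 0.0317 (no EPO), than in stage E1, with 0.0729 (EPO) and 0.0934 (no EPO), so that a change of a given size passed more easily in E2. Of 14 erythroid marker probe sets (7 genes), 12 were higher in E2 than in E1 with EPO and 13 without. The mean over 10 neutrophil and granulocyte genes lay between -0.07 and -0.03 on the 6 E2 arrays and between 5.23 and 5.68 on the 8 E1 arrays. After EPO, 1 marker probe set passed in E2, that of the progenitor factor Gata2 (1450333_a_at, 0.58 higher), and none passed in E1 in limma. In bulk RNA, fewer cells of a type and less RNA per cell cannot be told apart.

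In stage E1, the cationic and large neutral amino acid importers Slc7a1 and Slc7a5 rose after 90 min of EPO, and the lysosomal arginine sensor Slc38a9 fell. These 3 genes held all 5 member probe sets that passed, 3 higher and 2 lower. Over all probe sets, 0.804% passed as higher and 0.36% as lower. The median difference over members was -0.00246 on the log2 scale, beside -0.00466 over all probe sets. At an unadjusted p under 0.05, 14 members were higher and 9 lower, beside 2262 higher and 1720 lower among all 45037 probe sets.

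Slc7a1 encodes the importer of arginine and lysine. Its probe set 1454992_at read 0.12, 0.57, 0.79 and 0.72 on the EPO-challenged E1 arrays, against -2.09, -1.13, -1.38 and -1.43 on the unchallenged ones. The groups lay apart, with every EPO-challenged array above every unchallenged one. The difference was 2.05 on the log2 scale (SE 0.24), a 4.15-fold rise, with a limma adjusted p of 0.0141. The second probe set, 1454991_at, read 0.11, 0.81, 0.25 and 0.31 with EPO, against -0.94, -0.69, -1.42 and -1.38 without. It rose by 1.48 (SE 0.22, 2.79-fold, limma adjusted p 0.034). The third, 1421533_at, read between -0.00 and 0.75 with EPO and between -0.01 and 0.02 without, and did not pass (0.21, SE 0.17).

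Slc7a5, the carrier of leucine and other large neutral amino acids, has 1 probe set. It read -1.45, -1.15, -0.82 and -0.52 on the EPO-challenged arrays, against -2.32, -2.28, -2.09 and -2.14 on the unchallenged ones. The rise was 1.22 (SE 0.20, 2.33-fold, limma adjusted p 0.0446), with no overlap between the groups. Its heavy chain partner Slc3a2 read -1.31, -0.89, -1.22 and -1.25 with EPO, against -1.73, -1.59, -1.91 and -1.91 without. The groups of Slc3a2 did not overlap either, but the difference of 0.62 (SE 0.11) did not pass (limma adjusted p 0.0724). How many of all probe sets had no overlap was not counted.

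Slc38a9 was lower with EPO in E1. Probe set 1454283_at read -2.35, -0.98, -1.47 and -1.91 with EPO, against 0.40, 1.17, 0.38 and 0.38 without. It fell by 2.26 (SE 0.33, 4.79-fold lower, limma adjusted p 0.0323). Probe set 1455612_at read -0.24, -0.24, -0.09 and -0.48 with EPO, against 0.56, 0.69, 1.20 and 1.36 without, and fell by 1.21 (SE 0.20, limma adjusted p 0.0466). The other 5 probe sets of Slc38a9 had negative differences from -1.32 to -0.32 and did not pass.

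**Figure D1:**
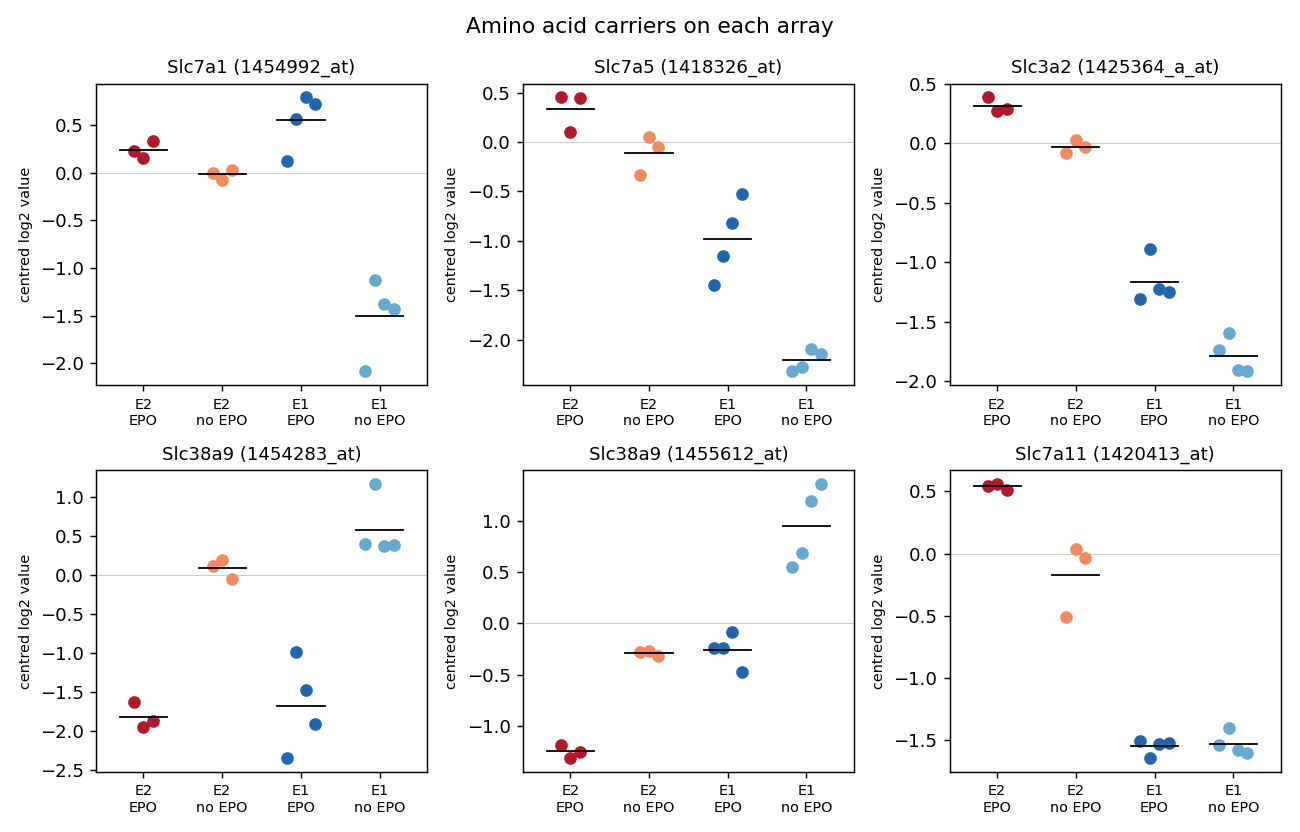
Centred log2 values (vertical axis) of 6 probe sets on each of the 14 arrays, with E2 and then E1, and in each stage EPO-challenged before unchallenged arrays; points are arrays and bars are group means. In E1 the EPO-challenged arrays of Slc7a1 (0.12 to 0.79) lie above the unchallenged ones (-2.09 to -1.13), while Slc7a11 lies near -1.5 in both E1 groups.

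Replicate numbers were taken to pair the E1 arrays, though no source states a pairing, and all 5 calls were lost once it entered the fit as a block. The blocked adjusted p was 0.0502 for 1454992_at and 0.0807 for 1454991_at of Slc7a1, 0.113 for Slc7a5, and 0.066 for 1454283_at and 0.199 for 1455612_at of Slc38a9. Without single arrays the counts ran between 0 and 3 higher and between 0 and 1 lower: 1455612_at was lost whichever of the 8 arrays was left out, Slc7a5, 1454991_at of Slc7a1 and 1454283_at of Slc38a9 were each lost in 7 of the 8 cases, and 1454992_at of Slc7a1 was lost without unchallenged replicate 3 or EPO replicate 3 or 4 (highest adjusted p 0.0595).

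A further set of neutral amino acid carriers gave differences in E1 that did not pass. The 3 probe sets of Slc1a4, a carrier of alanine, serine and cysteine, differed by 1.50 (SE 0.32), 0.68 (SE 0.21) and 1.86 (SE 0.52), with adjusted p from 0.109 to 0.301 (limma). None of them overlapped between the groups. The share of all probe sets without overlap was not counted, so the separation is not read as a change. The glutamine carrier Slc1a5 differed by 1.33 (SE 0.29, limma adjusted p 0.118) in probe set 1440379_at and by 0.23 (SE 0.77) in 1416629_at. The glutamine carriers Slc38a1 (0.82 and 0.74, adjusted p 0.354 and 0.152) and Slc38a2 (0.60 in 1426722_at, adjusted p 0.178) likewise did not pass in limma. The lysosomal carrier Slc36a1 differed by -0.53 (SE 0.24, limma adjusted p 0.628). With all 14 arrays in 1 fit, 9 members passed as higher and 4 as lower. Over all 45037 probe sets that fit passed 1063 as higher and 632 as lower, where the main fit passed 362 and 162.

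In stage E2, 7 members passed after EPO, 4 higher and 3 lower. Over all probe sets, 2.54% passed as higher and 2.08% as lower. Slc36a4, Slc38a1, Slc38a2 and Slc3a2 rose, and Slc38a9 and the taurine carrier Slc6a6 fell. The median over members was -0.00495, beside -0.00488 over all probe sets. At an unadjusted p under 0.05, 11 members were higher and 12 lower, beside 3517 higher and 3899 lower among all 45037 probe sets.

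Slc38a9 was lower in E2 as well. Probe set 1454283_at read -1.63, -1.95 and -1.87 on the EPO-challenged arrays, against 0.12, 0.19 and -0.05 on the unchallenged ones. It fell by 1.91 (SE 0.11, 3.75-fold lower, limma adjusted p 0.00361). Probe set 1455612_at read -1.19, -1.32 and -1.25 with EPO, against -0.28, -0.27 and -0.32 without, and fell by 0.96 (SE 0.04, limma adjusted p 0.00192). These are the only E2 member calls that held under each of the 13 alternatives run. The remaining 5 probe sets ranged from -0.41 to -0.02 and did not pass.

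**Figure D2:**
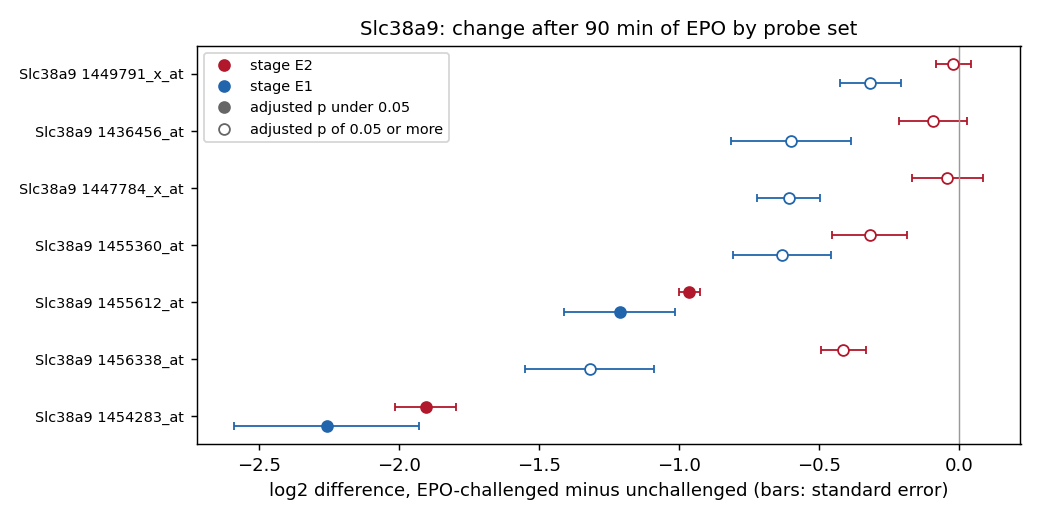
Log2 difference between EPO-challenged and unchallenged arrays (horizontal axis) for the 7 probe sets of Slc38a9 in E2 and in E1; bars are standard errors and filled points have an adjusted p under 0.05. All 14 differences lie below 0, and the same 2 probe sets, 1454283_at and 1455612_at, passed in both stages.

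Slc36a4, a proton-independent carrier of tryptophan and proline, read 0.71, 1.05 and 0.96 on EPO-challenged E2 arrays, against -0.03, 0.29 and -0.02 on unchallenged ones. It rose by 0.83 (SE 0.13, 1.78-fold, limma adjusted p 0.0446). In E1 the same probe set differed by 0.07 (SE 0.11) and did not pass. The difference between the stages, 0.76 (SE 0.18), did not pass either (limma adjusted p 0.14).

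The glutamine carrier Slc38a2 read 0.26, 0.27 and 0.44 with EPO in E2, against -0.11, -0.12 and -0.10 without, in probe set 1426722_at (0.44, SE 0.05, limma adjusted p 0.0223). Its probe sets 1429593_at (means 0.34 with EPO and 0.16 without) and 1429594_at (-0.002 and 0.25) differed in sign and did not pass. Slc38a1 rose by 0.45 (SE 0.07, limma adjusted p 0.0372) in probe set 1454764_s_at, which read 0.07, -0.05 and 0.05 with EPO, against -0.46, -0.53 and -0.31 without. Its other probe set, 1415903_at, had the opposite sign (-0.26, SE 0.06, limma adjusted p 0.0988), so the probe sets of Slc38a1 disagree in E2. Slc3a2 read 0.39, 0.28 and 0.29 with EPO, against -0.08, 0.03 and -0.03 without, and rose by 0.35 (SE 0.04, limma adjusted p 0.0251). For Slc6a6, probe set 1437149_at read -0.47, -0.45 and -0.45 with EPO, against 0.18, 0.02 and -0.02 without, and fell by 0.52 (SE 0.06, limma adjusted p 0.0166). The other probe sets of Slc6a6 did not pass in E2. In E1 the mean of 1437149_at was higher with EPO (1.46) than without (0.72), and that difference did not pass. Slc36a4 and Slc3a2 were lost whichever of the 6 E2 arrays was left out, and Slc38a1, Slc38a2, Slc3a2 and Slc6a6 with all 14 arrays in 1 fit (adjusted p from 0.198 to 0.824). Without single arrays the count of higher members ran from 0 to 2 and that of lower members from 2 to 3.

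The carriers that rose in E1 gave smaller differences in E2 that did not pass. Slc7a1 read 0.23, 0.15 and 0.33 with EPO, against -0.00, -0.08 and 0.02 without (1454992_at, 0.26, SE 0.05, limma adjusted p 0.0844). Slc7a5 differed by 0.44 (SE 0.15, limma adjusted p 0.234). The cystine importer Slc7a11, which supplies cysteine for glutathione, read 0.55, 0.56 and 0.51 with EPO, against -0.51, 0.03 and -0.03 without (1420413_at, 0.71, SE 0.16). Its second probe set, 1443536_at, differed by 0.79 (SE 0.16), and neither passed in E2 (limma adjusted p 0.0926 and 0.0734). In E1 the Slc7a11 differences were -0.02 (SE 0.05) and -0.05 (SE 0.10).

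**Figure D3:**
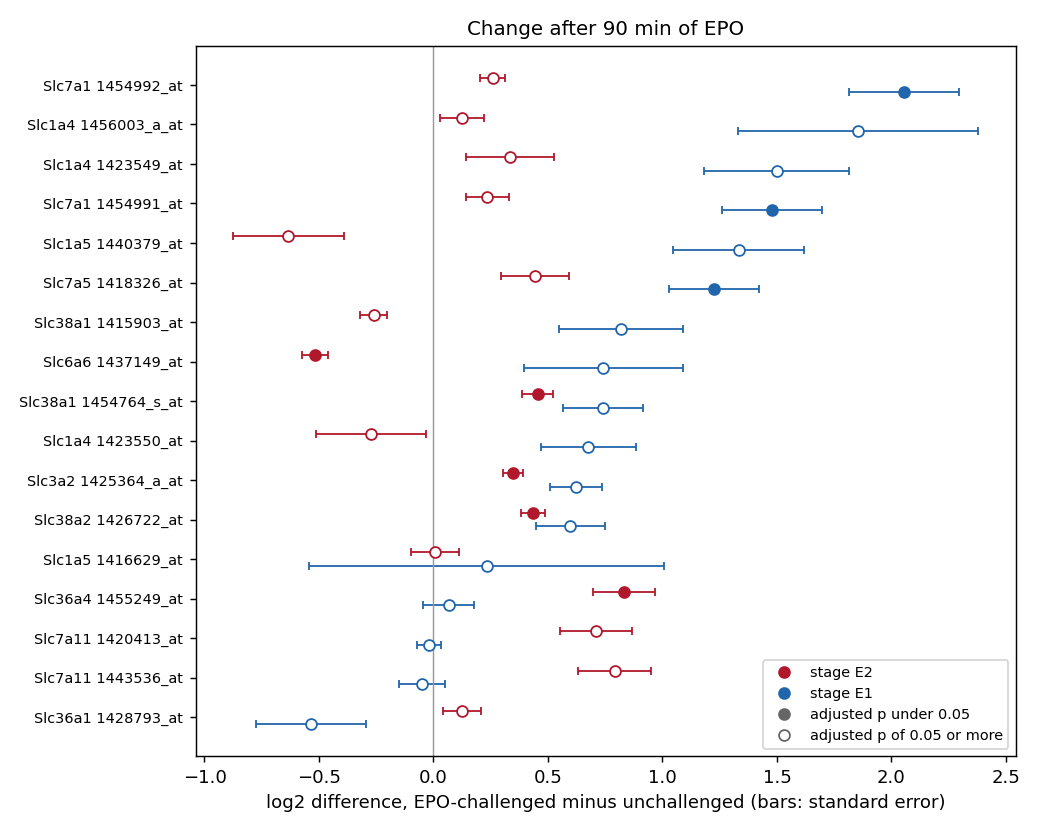
Log2 difference between EPO-challenged and unchallenged arrays (horizontal axis) for 17 probe sets of carriers other than Slc38a9, in E2 and in E1; bars are standard errors and filled points have an adjusted p under 0.05. Slc7a1 (2.05 and 1.48) and Slc7a5 (1.22) passed in E1, and Slc36a4 (0.83), Slc38a1, Slc38a2, Slc3a2 and, with a negative difference, Slc6a6 passed in E2.

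The test of the difference between the responses singled out Slc7a1. Its EPO response was smaller in E2 than in E1 by 1.80 log2 units in probe set 1454992_at (E2 minus E1 -1.80, SE 0.29, limma adjusted p 0.0281). It was the only member to pass, with 0 higher and 1 lower, where 0.18% of all probe sets passed as higher and 0.235% as lower. At an unadjusted p under 0.05, 6 members were higher and 10 lower, beside 1459 higher and 1777 lower among all 45037 probe sets. The other Slc7a1 probe set, 1454991_at, differed by -1.24 (SE 0.28, limma adjusted p 0.115). Slc1a5 (1440379_at, -1.97, SE 0.41, adjusted p 0.0846) and Slc7a11 (1420413_at, 0.73, SE 0.15, adjusted p 0.0855) did not pass in limma. After quantile normalization the Slc7a1 difference was -1.03 and still passed, 2 members were higher and 5 lower. The call on Slc7a1 was lost without EPO replicate 3 or 4 of E1 or whichever of the 6 E2 arrays was left out (highest adjusted p 0.0784).

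Promoter sequences are shown for 4 carriers that passed in at least 1 comparison and whose promoter holds a core searched for, chosen after their values were seen. The cores were TTCNNNGAA, which STAT5 reads, and TGATGNAA, which ATF4 reads with a C/EBP partner, both searched on both strands. Sequences are RefSeq promoters of build GRCm38.p6, from 250 bases before to 50 after the start, and 46 of the 63 member genes matched. Capitals mark the STAT5 core in Slc7a1 (chr5:148392766-148393065, minus strand, 1 of its 2 starts) and Slc38a9 (chr13:112660516-112660815, plus strand), and the ATF4 core in Slc7a11 (chr3:50443564-50443863, minus strand) and Slc1a4 (chr11:20332664-20332963, minus strand).
Slc7a1: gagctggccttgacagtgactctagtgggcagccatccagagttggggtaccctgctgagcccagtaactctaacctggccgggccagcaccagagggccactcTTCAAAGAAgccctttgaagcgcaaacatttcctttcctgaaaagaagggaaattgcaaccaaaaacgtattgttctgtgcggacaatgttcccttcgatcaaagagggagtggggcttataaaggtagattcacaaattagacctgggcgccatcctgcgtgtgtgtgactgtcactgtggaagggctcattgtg
Slc38a9: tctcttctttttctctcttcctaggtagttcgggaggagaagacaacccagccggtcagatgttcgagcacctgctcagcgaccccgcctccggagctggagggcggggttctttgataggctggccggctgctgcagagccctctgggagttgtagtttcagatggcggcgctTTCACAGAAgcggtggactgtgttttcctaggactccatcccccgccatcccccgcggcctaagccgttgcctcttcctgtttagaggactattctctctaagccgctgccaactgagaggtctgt
Slc7a11: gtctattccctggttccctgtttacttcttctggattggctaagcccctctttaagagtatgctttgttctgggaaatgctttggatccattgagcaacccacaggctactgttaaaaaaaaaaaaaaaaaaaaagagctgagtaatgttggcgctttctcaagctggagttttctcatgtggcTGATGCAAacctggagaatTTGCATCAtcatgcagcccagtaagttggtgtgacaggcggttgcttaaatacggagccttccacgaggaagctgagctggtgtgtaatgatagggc
Slc1a4: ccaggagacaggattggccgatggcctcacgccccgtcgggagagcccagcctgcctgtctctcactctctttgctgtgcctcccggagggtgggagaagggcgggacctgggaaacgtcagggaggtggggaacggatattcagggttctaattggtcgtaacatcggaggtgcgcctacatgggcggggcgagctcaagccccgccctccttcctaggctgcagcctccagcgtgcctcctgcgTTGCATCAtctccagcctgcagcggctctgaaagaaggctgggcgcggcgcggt

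The STAT5 core begins 146 bases before the start in Slc7a1 and 76 bases before it in Slc38a9, genes whose values moved in opposite directions after EPO in E1. In Slc7a11 the ATF4 core occurs on both strands, 66 and 47 bases before the start, and in Slc1a4 it lies 4 bases before the start. The STAT5 core stood in 8.3% of all 32851 promoters and in 5 of 67 member promoters (7.46%). The ATF4 core stood in 3.97% of all promoters and in 5 of 67 member promoters (7.46%). Slc7a11 and Slc1a3 also hold the STAT5 core. A match describes these letters and not a bound site.

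Between the stages, more members differed than after EPO. Without EPO, 20 members (13 genes) were higher and 6 (4 genes) lower in E2 than in E1, where 10.1% of all probe sets passed as higher and 10.8% as lower. With EPO, 19 members (15 genes) were higher and 7 (6 genes) lower, against 10.3% and 12% of all probe sets. The median member difference was -0.02 in both, and that of all probe sets -0.03. After quantile normalization the split was 19 higher to 10 lower without EPO and 17 to 11 with EPO. With EPO, lower members outnumbered higher ones, 25 to 20, without unchallenged E1 replicate 1, and 39 to 17 with array weights. Over all probe sets, lower calls led in these settings as well, 9682 to 5049 and 12964 to 6032. The main fit gave 5405 to 4642 over all probe sets. The neutrophil and granulocyte list moved with the stage, 8 of 10 probe sets lower in E2 with a median of -7.00 with EPO and -7.14 without, as did 7 of 8 progenitor and 3 of 5 mast cell probe sets (lower), and the erythroid and 4 of 4 megakaryocyte probe sets (higher). Their part in the stage differences of the carriers was not tested.

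Slc6a20a, Slc6a9 and probe set 1416629_at of Slc1a5 gave the stage differences of the greatest size among the members. Slc6a9, the plasma membrane glycine carrier, read 0.23, 0.00 and 0.15 on EPO-challenged E2 arrays and -0.11, 0.02 and -0.00 on unchallenged E2 arrays (1417636_at). On E1 arrays it read -3.29, -2.78, -2.38 and -2.37 with EPO and -3.17, -3.59, -3.00 and -2.98 without. It was higher in E2 by 2.83 with EPO (SE 0.21, 7.13-fold, limma adjusted p 2.92e-06) and by 3.15 without (SE 0.21, 8.89-fold, limma adjusted p 1.55e-06). Its other probe set gave 3.07 and 3.33.

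Slc6a20a, the proline carrier, read 0.26, 0.16 and 0.34 (EPO) and 0.54, 0.71 and 0.56 (no EPO) in E2, against -3.65, -4.82, -3.54 and -3.80 (EPO) and -2.24, -4.47, -2.38 and -2.43 (no EPO) in E1. It was higher in E2 by 4.21 with EPO (SE 0.49, 18.4-fold, limma adjusted p 7.46e-05) and by 3.49 without (SE 0.49, 11.2-fold, limma adjusted p 0.000329). Slc1a5 was higher by 2.75 with EPO and 2.97 without in probe set 1416629_at (SE 0.67, limma adjusted p 0.0112 and 0.00759). Its probe set 1440379_at was higher by 1.87 without EPO (limma adjusted p 0.00065) and differed by -0.10 with EPO, so the 2 probe sets disagree in challenged cells.

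Several carriers of large neutral amino acids were higher in E2 in both arms, while Slc7a8, which also carries them, did not pass in probe set 1417929_at (-0.16 with EPO and -0.22 without, SE 0.12 each). Slc7a5 was higher by 1.32 with EPO and 2.10 without (SE 0.19 each), and its partner Slc3a2 by 1.48 and 1.76 (SE 0.10 each). Slc43a1 was higher by 2.18 with EPO and 1.84 without (SE 0.17 each). For Slc43a2, probe sets 1439965_at (1.88 and 2.32) and 1434308_at (1.53 and 1.94) were higher, while 1456940_at stayed under an SD of 0.1. The purine base carrier Slc43a3 was higher by 1.40 with EPO and 1.19 without (SE 0.14 each). The cystine carrier Slc7a11 was higher by 2.09 with EPO and 1.36 without (1420413_at, SE 0.11 each), but after quantile normalization the difference without EPO was 0.69 and did not pass (limma adjusted p 0.0699). Its second probe set, 1443536_at, was also higher in E2 and kept its call in all 20 alternatives in both arms. The lowest difference among them was 1.92 with EPO and 0.84 without. Quantile normalization gave 1.30 for Slc7a5 and 0.74 for Slc43a3 without EPO and 0.96 for 1434308_at of Slc43a2 with EPO, all still past the test.

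Slc7a1 and Slc1a4 passed between the stages mainly in unchallenged cells. Slc7a1 was higher in E2 by 1.49 without EPO (1454992_at, SE 0.21, limma adjusted p 0.000315), and the difference with EPO was -0.31 (SE 0.21, limma adjusted p 0.283). The test of whether the arms differ is the one on the EPO responses above, which 1454992_at passed. Slc1a4 was higher in E2 by 2.08, 1.64 and 1.68 without EPO in its 3 probe sets, whereas with EPO the differences were 0.91, 0.69 and -0.05, of which 0.91 alone passed (limma adjusted p 0.0483). That call held in 7 of 20 alternatives, and with array weights the difference was 0.50 (adjusted p 0.138). After quantile normalization the difference of 1.68 without EPO was 0.98 and did not pass (adjusted p 0.0669). For Slc1a4 the arms were not shown to differ (limma adjusted p from 0.431 to 0.494).

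**Figure D4:**
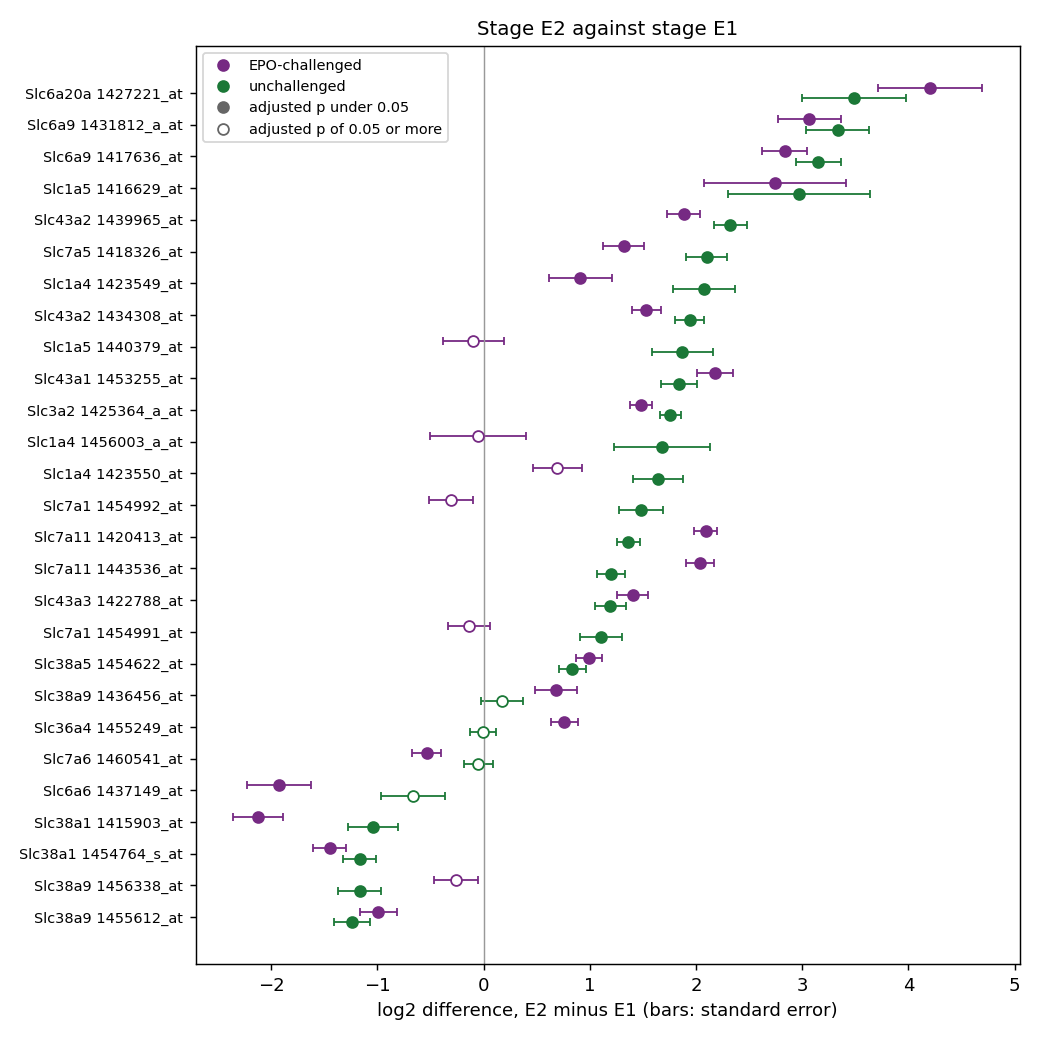
Log2 difference between E2 and E1 (horizontal axis) in EPO-challenged and in unchallenged cells, for the 27 member probe sets that passed in either arm with a difference of at least 0.5; bars are standard errors and filled points have an adjusted p under 0.05. Slc6a20a, Slc6a9 and Slc1a5 (1416629_at) stand at the right in both arms, and Slc7a1 lies at -0.31 and -0.13 in EPO-challenged cells.

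Slc38a1, Slc38a9, Slc6a6 and Slc7a6 held the falls of over 0.5 log2 units in E2 that passed. Slc38a1 read -0.14, -0.26 and -0.26 (EPO) and 0.05, 0.12 and -0.05 (no EPO) in E2, against 1.82, 2.54, 1.68 and 1.57 (EPO) and 1.46, 1.30, 0.61 and 0.96 (no EPO) in E1, in probe set 1415903_at. It was lower in E2 by 2.12 with EPO (log2 difference -2.12, SE 0.24, limma adjusted p 5.24e-05) and by 1.04 without (-1.04, SE 0.24, limma adjusted p 0.00793). Slc38a9 was lower in E2 in probe set 1455612_at (-0.99 with EPO, or -2.45 after quantile normalization, and -1.24 without) and, without EPO, in 1456338_at (-1.17). With EPO its probe sets 1436456_at (0.68) and 1447784_x_at (0.43) were higher in E2, which did not hold after quantile normalization (limma adjusted p 0.0778 and 0.606). The taurine carrier Slc6a6 was lower by 1.92 with EPO (1437149_at, log2 difference -1.92, SE 0.30, limma adjusted p 0.000631), and without EPO its difference was -0.66 and did not pass. Slc7a6, an exchanger of cationic for neutral amino acids, was lower with EPO in probe set 1460541_at (-0.54, SE 0.14, limma adjusted p 0.0141, and -0.34 after quantile normalization). On the EPO-challenged E1 arrays 1460541_at read 0.01, 0.78, 0.58 and 0.59. The other Slc7a6 probe set, 1433467_at, did not pass (means with EPO 0.02 in E2 and 0.21 in E1).

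Small falls were called for the glutamate carrier Slc1a3 (1426340_at, -0.13 without EPO, and 1440491_at, -0.21 with EPO), Slc6a14 (-0.18 without EPO), a carrier of neutral and cationic amino acids, and Slc6a15 (-0.10 with EPO), a carrier of neutral ones. Leaving out 1 array ended the calls on 1426340_at, Slc6a14 and Slc6a15 in most cases (highest adjusted p 0.146, 0.152 and 0.16). After quantile normalization 1440491_at of Slc1a3 gave -0.43 and Slc6a14 -0.31. The creatine carrier Slc6a8 was higher by 0.17 with EPO and 0.23 without (1448596_at), the glutamine carrier Slc38a5 by 0.99 and 0.84, Slc36a4 by 0.76 with EPO (1.33 after quantile normalization), and Slc38a10 by 0.49 with EPO in 1 of its 7 probe sets. Slc6a8, Slc38a5 and Slc38a10 were named after their values were seen.

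Genes outside these families that act in the same pathways were counted from lists. Over all probe sets, 4.62% passed in either direction after EPO in E2, 1.16% in E1 and 0.415% in the interaction. Of 49 probe sets (20 genes) of the ATF4 and amino acid response, 15 were higher and 0 lower after EPO in E2, and 12 were higher and 0 lower in E1. The median difference of that list was 0.16 in E2 and 0.46 in E1, and its responses passed as different between the stages in 8 probe sets, 1 higher and 7 lower in E2. Mthfd2, a mitochondrial enzyme of folate metabolism, rose by 0.52 and 0.45 in E2 and by 1.39 and 1.59 in E1 in 2 probe sets, and Cebpg, a C/EBP family factor, by 0.64 in E2 and 0.90 in E1 (1425262_at). Atf4 itself rose by 0.40 in E2 and 1.41 in E1 in probe set 1448135_at, while its probe set 1438992_x_at did not pass after EPO. The serine synthesis enzyme Psat1 rose in E2 (0.52 and 0.66). The largest rises of the list that passed in E1 were those of Trib3 (4.24 and 3.69), Nupr1 (3.90 and 3.54) and Chac1 (3.49). In E2 the largest was that of Atf3 (2.16).

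Of 63 probe sets (29 genes) of lysosomal amino acid sensing, 2 were higher and 7 lower after EPO in E2, and 0 higher and 2 lower in E1. In E2 the GATOR subunits Nprl2 (-0.41) and Wdr24 (-0.51), the folliculin gene Flcn (-0.54), Rraga (-0.26) and Lamtor2 (-0.34) fell, as did the sestrin Sesn1 in 2 probe sets (-1.08 and -0.89), and Lamtor3 (0.42) and Rheb (0.33) rose. The sestrins Sesn1 and Sesn3 were the 2 that fell in E1 (-1.13 and -1.78). The sestrin Sesn2, counted in the ATF4 list, rose after EPO in probe set 1451599_at (2.25 in E1 and 0.50 in E2). Its probe set 1425139_at did not pass after EPO. At an unadjusted p under 0.05, 11 of the 63 probe sets were higher and 13 lower in E2, and 4 were higher and 5 lower in E1. Among all 45037 probe sets, 3517 were higher and 3899 lower in E2, and 2262 and 1720 in E1. Of 36 probe sets (19 genes) of amino acid carriers outside these families, 0 were higher and 2 lower in E2, the mitochondrial carriers Slc25a38 (-0.53), which brings glycine to haem synthesis, and Slc25a44 (-0.67). None of the 36 passed in E1 in limma, where 1 was higher and 3 lower at an unadjusted p under 0.05.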

How the data were processed

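RNA from 14 samples was hybridised to Affymetrix mouse arrays. The authors processed scans with GCOS and GC-RMA (GeneSpring GX), and the deposited values are log2 values centred by 1 constant per probe set. In 78% of probe sets a value is 0, or the nearest values above and below 0 are of equal size. The constant need not be the median of these 14 arrays, since all E1 values of Slc6a9 (1417636_at) lie below 0. The base of 2 was inferred, and levels cannot be read. No filter on levels was possible. Of 45101 probe sets, 64 controls were left out. Comparisons used limma 3.58.1 (R 4.3.3, the data.table package at version 1.17.8), each EPO response on its own stage's arrays, the interaction and the stage comparisons on 14 arrays. Figures used matplotlib 3.10.9. The number of arrays limits the precision.

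Members and lists were chosen with earlier results of these data known. Named were genes with a call after EPO or in the interaction, the 8 genes of the largest stage change per direction, and fixed carriers, whatever their values. All 125 members matched a current Entrez gene, and 1 probe set naming a member with another gene was left out.

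E1 arrays of the same number deviated together (correlations 0.195, 0.187, 0.173 and 0.152, though EPO replicate 3 correlated best with unchallenged replicate 4, at 0.203), so the numbers were taken to pair them; the source is the titles' numbers and these deviations, and no shared batch is stated. The calculations were tested on simulated data. False calls stayed near the nominal share where the groups had the same spread and exceeded it where each group or stage had its own spread, most of all between the stages, where E1 varied more than E2. Adjusted p-values, those of the stage comparisons above all, are therefore too small if the true spreads differ so. The record gives day 3 for stage E1, whereas the paper's methods give a later time.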

Additional observations from a re-analysis of the deposited data

Results flagged for a closer look

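In the named genes, a single E1 array stood apart from the other 3 of its group for 18 of 98 probe set and group pairs. The value given is the gap to the nearest array as a share of the group's range. The cutoff on that share has a nominal level of about 1 in 20 pairs. Its rate in these data was not measured, and the share of all probe sets passing it was not counted. The count is therefore not read as an excess in these carriers. A flagged gap can be small in log2 units. For Slc1a3 1426341_at, unchallenged replicate 1 read 0.026 where the next array read 0.0009. On EPO-challenged E1 replicate 1, Slc1a5 1416629_at had 0.914, Slc6a14 1420504_at had 0.888, Slc38a2 1429594_at had 0.971, Slc1a5 1440379_at had 0.976 and Slc1a3 1443749_x_at had 0.936. On EPO-challenged E1 replicate 2, Slc7a11 1420413_at had 0.83, Slc38a2 1429593_at had 0.981, Slc6a6 1449751_at had 0.903 and Slc38a1 1454764_s_at had 0.928. On EPO-challenged E1 replicate 4, Slc7a1 1421533_at had 0.871 and Slc1a3 1439072_at had 0.891. On unchallenged E1 replicate 1, Slc6a6 1420148_at had 0.97, Slc6a14 1420503_at had 0.894 and Slc1a3 1426341_at had 0.832. On unchallenged E1 replicate 2, Slc6a20a 1427221_at had 0.916, Slc38a9 1454283_at had 0.971, Slc36a4 1455249_at had 0.906 and Slc38a9 1456338_at had 0.836. For the glutamine carrier Slc1a5 (1416629_at), EPO-challenged replicate 1 read -4.52 where the next array read -2.17. For the proline carrier Slc6a20a, unchallenged replicate 2 read -4.47 where the next read -2.43. The response of Slc7a1 (1454992_at) to EPO differed between the stages by -1.80 log2 units (E2 minus E1) in the test of the interaction.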

How the results depend on the processing

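The 60 named differences had all been called in the main fit, and their 1122 repeats reused the same arrays. That no value changed direction is therefore no independent check. The call was kept in 967 repeats. It was lost in 43 of 75 repeats in E1, 38 of 91 in E2 and 8 of 20 in the interaction. Between the stages it was lost in 29 of 478 without EPO and in 37 of 458 with EPO. All 5 E1 calls and the 1 interaction call were lost in some alternative, while 2 of 7 in E2, 20 of 24 without EPO and 19 of 23 with EPO between the stages held in every alternative run. For the EPO response in E1, members higher numbered 6 among the 22519 probe sets with the largest SD alone, 0 with the replicate block and 9 in 1 fit of 14 arrays. Members lower numbered 1 with arrays centred on their medians, 1 with trend and robust, 1 with the methods' one-tailed t-test after Benjamini-Hochberg adjustment, 0 with the block and 4 in 1 fit. In E2, members higher numbered 7 in that set of large SD and 0 with the block, and members lower 5 in that set. E2 replicate numbers did not pair the arrays (correlations -0.061, -0.057 and -0.016), and no array correlated best with its own number. In the interaction, members higher numbered 2 after quantile normalization and 1 with array weights, and members lower 5 after quantile normalization, 2 in that set of large SD and 6 with weights. Between the stages, members lower without EPO numbered 10 after quantile normalization and 16 with weights, and with EPO 11 after quantile normalization, 11 with trend and robust and 39 with weights. Across single arrays left out, counts of higher and lower members ran 0 to 3 and 0 to 1 (E1), 0 to 2 and 2 to 3 (E2), 0 to 1 and 0 to 3 (interaction), 19 to 21 and 4 to 9 (stages without EPO), and 14 to 20 and 6 to 25 (stages with EPO, 25 without unchallenged E1 replicate 1). Counts over all probe sets moved too. In E1 they were 1063 higher and 632 lower in 1 fit of 14 arrays, against 362 and 162 in the main fit. Between the stages with EPO, 12964 were lower with weights, against 5405 in the main fit. The causes were not tested.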
